A study of Homo sapiens with 13 samples.

Results

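The 36 genes described here encode glycolysis, lactate export and hypoxia-inducible factor 1 (HIF-1) targets. They were chosen by name, and each symbol matched 1 of the 63241 Ensembl gene IDs in the deposited tables. The first class, called the glycolysis members, holds 24 genes: 2 glucose transporters, the enzymes from hexokinase to lactate dehydrogenase, the PFKFB regulators, and the lactate carriers SLC16A1 and SLC16A3. The other class, called the HIF members, holds 12 genes: 10 targets of HIF-1 that are not glycolytic enzymes, and the HIF subunit genes HIF1A and EPAS1. Of the 36 genes, 35 passed the expression filter. EGLN3, which had 41 reads over all 13 libraries, did not pass and was not tested.

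Poly-A RNA was sequenced from AC16, a human line obtained by fusion of ventricular cardiomyocytes with transformed fibroblasts. The groups were control (3 libraries), FCCP (3), preconditioning (4) and preconditioning+FCCP (3), where FCCP carries protons across the inner mitochondrial membrane and so dissipates its potential. Preconditioning refers to optogenetic treatment of mitochondria with a construct named mOpto. The genotype of all 13 libraries is given as wildtype, and whether control or FCCP cells also carried mOpto or were illuminated is not stated, nor are the dose and duration of FCCP.

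Glycolysis splits glucose into pyruvate and yields ATP without oxygen or a mitochondrial membrane potential. Lactate dehydrogenase turns pyruvate into lactate, which leaves the cell with a proton through the monocarboxylate transporters MCT1 (SLC16A1) and MCT4 (SLC16A3). HIF-1 is a dimer whose alpha subunit is marked for destruction by the prolyl hydroxylases EGLN1 and EGLN3 when oxygen is present. When oxygen is low it binds a short element with the core ACGTG near many of these genes, so glycolytic and other targets often rise together in hypoxia.

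The libraries held 14970803 to 20636229 gene counts. The labels do not name separate cultures for the libraries of a group, and p-values therefore reflect library-to-library spread that may be technical. In bulk RNA, fewer cells of a type and less RNA per cell cannot be told apart. The share of multiply aligned reads had its widest gap between 5.22% and 7.13%, and this gap divided the libraries into 2 sets. The higher-share set (7.13% to 11.5%) held control 1 and 2, all FCCP libraries and preconditioning+FCCP 3, and the lower-share set (3.16% to 5.22%) held the other 7. The cells are labelled as myocytes. Of 26 cardiomyocyte markers, 9 passed the filter, TNNT2 had no read in any library, and MYH6, MYH7 and MYL2 reached at most 0.169, 0.276 and 0.069 CPM. All 15 fibroblast markers passed, and their summed level was 9243 to 16080 CPM in the control libraries.

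Levels are given as counts per 1000000 gene counts (CPM) after library scaling. Changes are log2 values with their standard error (SE) from edgeR's quasi-likelihood test, and a gene was called when its Benjamini-Hochberg adjusted p over 16756 genes was below 0.05. Across the 4 groups, most glycolysis members were low in the preconditioning+FCCP libraries, while some, such as SLC2A3, HK2 and SLC16A1, were not. Together the glycolysis members took 0.887%, 0.710% and 0.781% of the gene counts in the 3 preconditioning+FCCP libraries, a mean of 0.793% ± 0.089 (SD, n = 3). Abundant members such as GAPDH, ENO1 and PKM weigh most in that share. In the other groups this share was 1.38% to 1.81% (control), 1.45% to 2.27% (FCCP) and 1.64% to 2.39% (preconditioning), so every preconditioning+FCCP library lay below every other library.

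**Figure D1:**
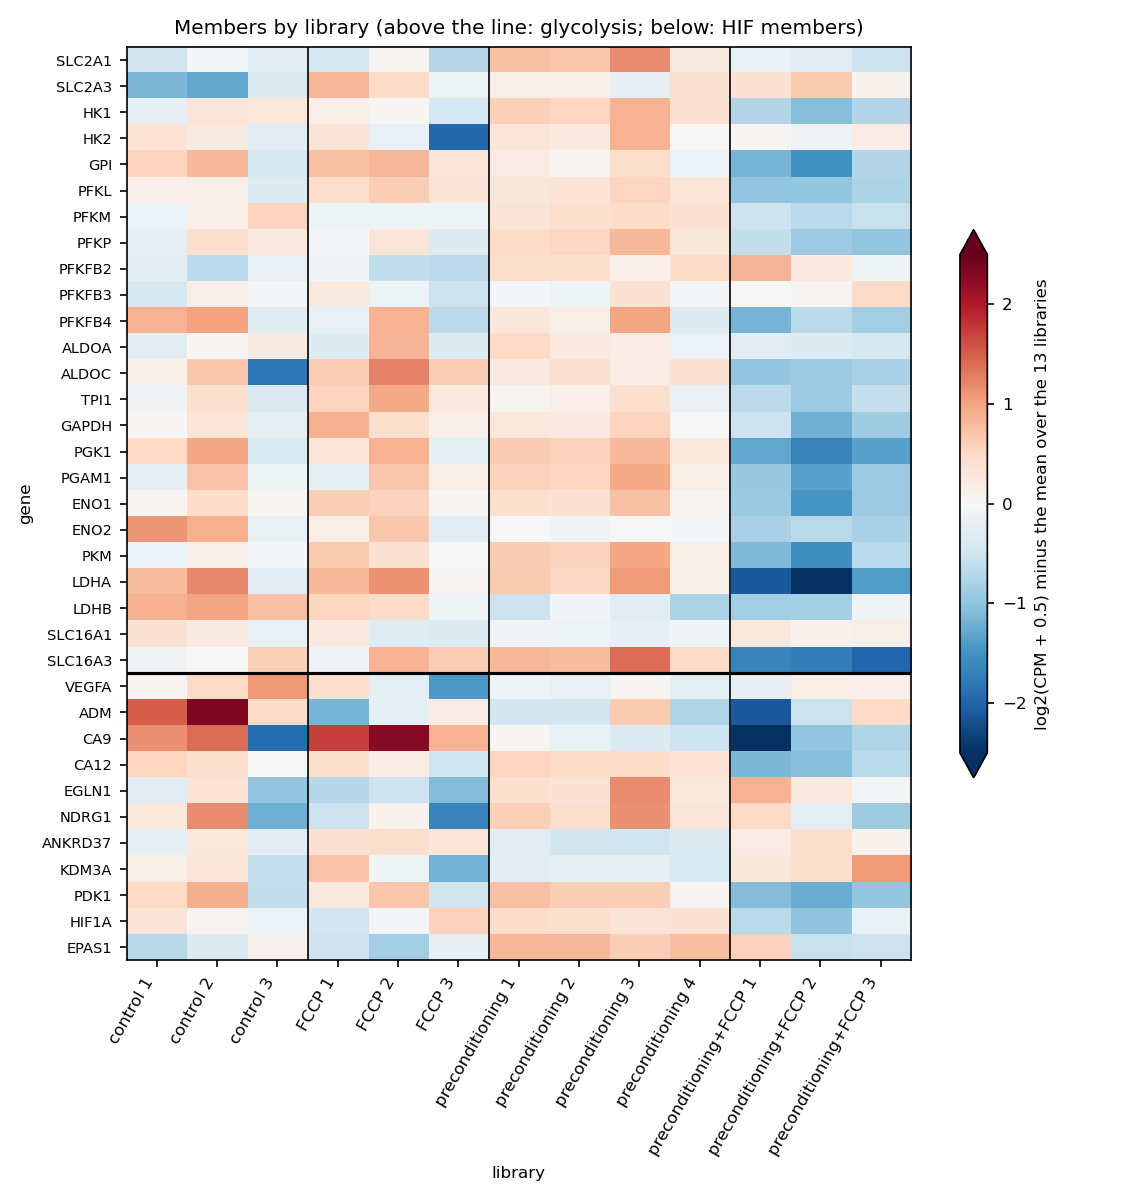
Level of the 35 tested members (vertical axis) in each of the 13 libraries (horizontal axis). The colour is log2(CPM + 0.5) minus the gene's mean over all libraries, with red for higher and blue for lower, and a horizontal line parts the glycolysis members from the HIF members. Most rows above the line are blue in the last 3 columns, the preconditioning+FCCP libraries, while the rows below it are mixed.

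The question of the first comparison is how cells given FCCP differed with and without preconditioning. Of the 24 glycolysis members, 16 fell and 1 rose in preconditioning+FCCP against FCCP, where 17.7% of all genes tested were called lower and 17.9% higher (35.7% in either direction). The median log2 change of the 24 was -1.06, beside 0.01 over all genes. Of the 11 tested HIF members, 3 fell and 1 rose, with a median of -0.06. Against preconditioning, the other comparison that uses the preconditioning+FCCP libraries, 17 of 24 glycolysis members fell and none rose, beside 19.2% of all genes lower and 20.2% higher (39.4% in either direction). There 4 HIF members fell and 2 rose. The medians were -1.18 for the glycolysis members, -0.76 for the HIF members and 0.02 over all genes. Both comparisons rest on the same 3 preconditioning+FCCP libraries, and the difference between the classes was not tested.

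**Figure D2:**
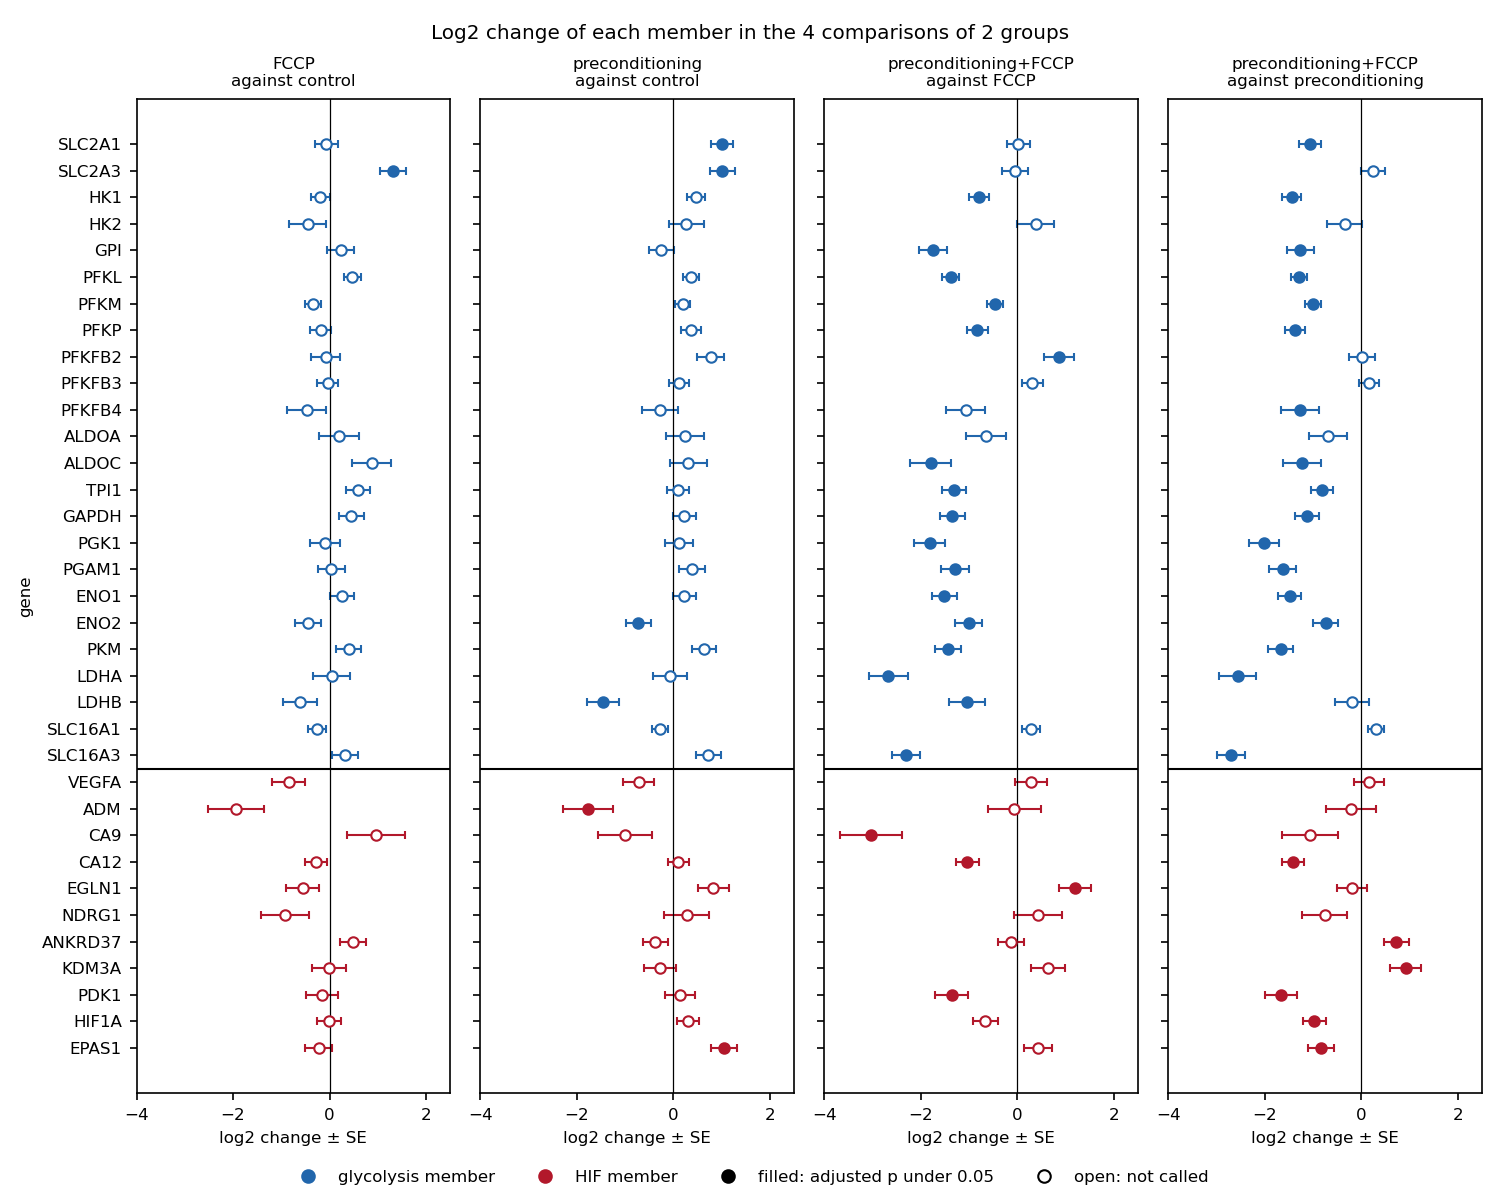
Log2 change with its SE (horizontal axis) of each tested member (vertical axis) in the 4 comparisons of 2 groups; filled points have an adjusted p below 0.05. In the right-hand pair of panels the points from HK1 to SLC16A3 lie mostly left of 0, with LDHA at -2.67 against FCCP and -2.57 against preconditioning, and HK2, PFKFB3 and SLC16A1 near 0.

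Glucose enters these cells through facilitative transporters. SLC2A1 encodes GLUT1, the basal glucose transporter of most cells. Its level was 115, 154 and 129.6 CPM in control 1 to 3, 117, 165 and 97.3 CPM in FCCP 1 to 3, 265, 256, 359.9 and 187 CPM in preconditioning 1 to 4, and 142, 132 and 111 CPM in preconditioning+FCCP 1 to 3. Only the preconditioning libraries stood above the rest. Against preconditioning, SLC2A1 fell by 1.06 ± 0.23 (SE, adjusted p = 0.00204) on the log2 scale in preconditioning+FCCP. Against FCCP its log2 change was 0.02 ± 0.24 (adjusted p = 0.958), with overlapping libraries. SLC2A3 encodes GLUT3, a high-affinity transporter, and has a near-identical copy, SLC2A14, so its reads may be divided between genes. SLC2A3 was at 52.9, 47.7 and 90.7 CPM in control, 207, 161 and 107 CPM in FCCP, 131, 129.6, 101 and 151 CPM in preconditioning, and 149.5, 183 and 123 CPM in preconditioning+FCCP. The control libraries were the low ones. The log2 change of SLC2A3 in preconditioning+FCCP was -0.06 ± 0.27 against FCCP and 0.24 ± 0.25 against preconditioning, neither called.

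Hexokinase traps glucose in the cell as glucose 6-phosphate. HK1, the isoform most tissues use, was at 199.99, 285 and 277 CPM in control, 260.4, 236 and 173 CPM in FCCP, 351, 334, 422 and 298 CPM in preconditioning, and 139, 109 and 138 CPM in preconditioning+FCCP. All 3 preconditioning+FCCP libraries lay below the other 10. HK1 fell by 0.79 ± 0.21 against FCCP (adjusted p = 0.00833) and by 1.45 ± 0.20 against preconditioning (adjusted p = 8.87e-05) on the log2 scale. HK2, the inducible isoform and a classic HIF-1 target, was at 122, 111 and 78.5 CPM in control, 119, 84.4 and 24.1 CPM in FCCP, 118, 113, 174 and 94.5 CPM in preconditioning, and 97.5, 89.5 and 109 CPM in preconditioning+FCCP. The groups overlapped, with FCCP 3 low, and HK2 was called in none of the comparisons. Its log2 change was 0.38 ± 0.39 against FCCP and -0.34 ± 0.36 against preconditioning. GPI, which turns glucose 6-phosphate into fructose 6-phosphate, was at 722, 860.5 and 364 CPM in control, 816, 863 and 600.3 CPM in FCCP, 562, 514, 662 and 442 CPM in preconditioning, and 218, 169 and 293 CPM in preconditioning+FCCP. The 3 preconditioning+FCCP libraries were the lowest of the 13, and GPI fell by 1.75 ± 0.29 against FCCP (adjusted p = 0.000721).

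Phosphofructokinase commits sugar to glycolysis and exists as liver (PFKL), muscle (PFKM) and platelet (PFKP) forms. PFKL was at 384, 391 and 275 CPM in control, 479, 539.6 and 436 CPM in FCCP, 428, 444, 508 and 433 CPM in preconditioning, and 176, 178 and 202 CPM in preconditioning+FCCP. No preconditioning+FCCP library reached any library of another group. PFKL fell by 1.39 ± 0.18 against FCCP (adjusted p = 0.000248) and by 1.29 ± 0.17 against preconditioning (adjusted p = 7.05e-05). PFKP was at 209.5, 329 and 285 CPM in control, 236, 299 and 193 CPM in FCCP, 337, 348, 429 and 295 CPM in preconditioning, and 158, 129.6 and 122 CPM in preconditioning+FCCP, again without overlap. It fell by 0.83 ± 0.22 against FCCP and by 1.37 ± 0.21 against preconditioning (adjusted p = 0.00845 and 0.000185). PFKM fell by 0.99 ± 0.16 against preconditioning. Its smaller fall against FCCP, 0.47 ± 0.17 (adjusted p = 0.0458), ended when any of 10 libraries was left out, with adjusted p-values up to 0.133.

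The PFKFB enzymes make and remove fructose 2,6-bisphosphate, the activator of phosphofructokinase. PFKFB3, the form with the strongest kinase activity, was at 49.7, 73.6 and 64.1 CPM in control, 76.5, 59.9 and 45.6 CPM in FCCP, 63.0, 60.5, 83.7 and 62.8 CPM in preconditioning, and 65.1, 68.8 and 91.0 CPM in preconditioning+FCCP. These values overlapped throughout, and the log2 change of PFKFB3 was 0.31 ± 0.22 against FCCP and 0.15 ± 0.20 against preconditioning. PFKFB4, a HIF-1 target, was at 49.5, 55.1 and 21.7 CPM in control, 23.8, 50.03 and 16.9 CPM in FCCP, 33.2, 29.9, 54.3 and 21.5 CPM in preconditioning, and 11.9, 16.7 and 14.5 CPM in preconditioning+FCCP. The preconditioning+FCCP libraries were the lowest, 1 of them just under FCCP 3. PFKFB4 fell by 1.27 ± 0.39 against preconditioning (adjusted p = 0.0177), a call that ended without preconditioning 3 or preconditioning+FCCP 1 (adjusted p up to 0.0637). Against FCCP the log2 change was -1.08 ± 0.41 (adjusted p = 0.0516). PFKFB2, the heart form, was the 1 glycolysis member called higher against FCCP, by 0.86 ± 0.30 on the log2 scale (adjusted p = 0.0363), from group means of 4.98 to 9.06 CPM. That call ended without any of 6 libraries: FCCP 2 or 3, preconditioning 1 or 2, or preconditioning+FCCP 1 or 2 (adjusted p up to 0.205).

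The middle of the pathway cleaves and oxidises the sugar. ALDOA had too few reads to compare: it was at 1.41 to 4.02 CPM. In GENCODE 29 it shares 53.5% of its exon bases with other genes, the largest overlap being with AC093512.2 on the same strand. Aldolase C (ALDOC) was at 5.26 to 31.9 CPM in control, 30.3 to 47.5 CPM in FCCP, 22.6 to 26.0 CPM in preconditioning and 9.67 to 11.1 CPM in preconditioning+FCCP. It fell by 1.801 ± 0.416 against FCCP (adjusted p = 0.00427) and by 1.24 ± 0.39 against preconditioning (adjusted p = 0.0205). Control 3 was lower still. The call of ALDOC against preconditioning ended without preconditioning+FCCP 1 or 2 (adjusted p up to 0.0587). The triose isomerase TPI1, the dehydrogenase GAPDH and the mutase PGAM1 fell by 1.31 ± 0.25, 1.35 ± 0.26 and 1.30 ± 0.29 against FCCP, and by 0.82 ± 0.23, 1.12 ± 0.25 and 1.63 ± 0.28 against preconditioning, in each case without overlap between the libraries compared. GAPDH is often used to scale other RNAs, and its mean level was 3876 CPM in FCCP and 1519.5 CPM in preconditioning+FCCP.

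PGK1 makes the first ATP of the pathway. Its level was 1550.3, 2146 and 844 CPM in control, 1351, 1991 and 927 CPM in FCCP, 1689, 1625, 1919.5 and 1319.9 CPM in preconditioning, and 443, 342 and 426 CPM in preconditioning+FCCP. The highest preconditioning+FCCP library was below the lowest of the other 10, control 3. PGK1 fell by 1.82 ± 0.32 against FCCP (adjusted p = 0.000908) and by 2.02 ± 0.31 against preconditioning (adjusted p = 0.000199). ENO1, the main enolase, was at 2969.6, 4006 and 2997 CPM in control, 4489.6, 4377 and 3003 CPM in FCCP, 3851, 3747 and 4859 and 3064 CPM in preconditioning, and 1536, 1052 and 1568 CPM in preconditioning+FCCP. It fell by 1.51 ± 0.25 against FCCP (adjusted p = 0.000706) and by 1.49 ± 0.24 against preconditioning (adjusted p = 0.000304). ENO2, the neuronal enolase, was at 550.5, 472 and 224 CPM in control, 289, 411 and 213 CPM in FCCP, 256, 240.3, 259 and 249.4 CPM in preconditioning, and 146, 161 and 145 CPM in preconditioning+FCCP. The preconditioning+FCCP libraries were again the lowest. ENO2 fell by 1.01 ± 0.28 against FCCP and by 0.74 ± 0.26 against preconditioning. The first call ended without FCCP 2 (adjusted p = 0.0666) and the other without any of the 7 preconditioning and preconditioning+FCCP libraries (adjusted p up to 0.0808).

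PKM, the pyruvate kinase that ends the pathway, was at 2135, 2579 and 2317 CPM in control, 3760.3, 3070.5 and 2406 CPM in FCCP, 3677.5, 3528 and 4669.6 and 2660.5 CPM in preconditioning, and 1111.5, 823 and 1485 CPM in preconditioning+FCCP. No library of another group came as low. PKM fell by 1.43 ± 0.27 against FCCP (adjusted p = 0.00124) and by 1.67 ± 0.26 against preconditioning (adjusted p = 0.000198).

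Lactate dehydrogenase A, the subunit that favours lactate production, changed the most of the glycolytic enzymes on the log2 scale in both comparisons. LDHA was at 1848.5, 2430.0 and 871 CPM in control, 1876, 2302 and 1118 CPM in FCCP, 1673, 1511, 2236 and 1141 CPM in preconditioning, and 248.7, 179.7 and 403 CPM in preconditioning+FCCP. The highest preconditioning+FCCP library had less than the lowest library of every other group. LDHA fell by 2.67 ± 0.40 against FCCP (adjusted p = 0.000376) and by 2.57 ± 0.39 against preconditioning (adjusted p = 0.000176), which is 6.37-fold and 5.92-fold. LDHB, the subunit common in heart, was at 6.14, 6.62 and 5.44 CPM in control, 4.72, 4.41 and 2.83 CPM in FCCP, 1.96, 2.90, 2.43 and 1.56 CPM in preconditioning, and 1.45, 1.48 and 2.88 CPM in preconditioning+FCCP. It shares 33.4% of its exon bases with other genes, most with AC010197.2, so its level is uncertain. LDHB fell by 1.04 ± 0.37 against FCCP (adjusted p = 0.0361), with overlapping libraries, and this ended without FCCP 1 or 2 or preconditioning+FCCP 1 or 2 (adjusted p up to 0.136).

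Of the lactate carriers SLC16A3 fell in both comparisons and SLC16A1 was called in neither. SLC16A3 encodes MCT4, the low-affinity exporter of glycolytic cells and a HIF-1 target. It was at 275, 289.7 and 439 CPM in control, 274, 535 and 446 CPM in FCCP, 519, 503, 773 and 404 CPM in preconditioning, and 91.9, 88.3 and 73.3 CPM in preconditioning+FCCP. All 3 preconditioning+FCCP libraries were below every library of the other groups, and the levels in FCCP and preconditioning varied between libraries. SLC16A3 fell by 2.31 ± 0.29 against FCCP (adjusted p = 0.00022) and by 2.70 ± 0.28 against preconditioning (adjusted p = 1.18e-05). SLC16A1 encodes MCT1, which carries lactate in both directions. It was at 155, 141 and 106 CPM in control, 142, 97.2 and 94.5 CPM in FCCP, 113, 110.1, 104 and 114 CPM in preconditioning, and 146, 128 and 134 CPM in preconditioning+FCCP. The preconditioning+FCCP libraries lay above all preconditioning libraries and overlapped those of FCCP. For SLC16A1 this separation was not called. The log2 change of SLC16A1 was 0.29 ± 0.19 against FCCP (adjusted p = 0.239) and 0.30 ± 0.17 against preconditioning (adjusted p = 0.179). The ratio of SLC16A3 to SLC16A1 reads was 0.631, 0.690 and 0.546 in preconditioning+FCCP. In the other groups it was 1.77 to 4.14 (control), 1.92 to 5.51 (FCCP) and 3.54 to 7.41 (preconditioning).

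**Figure D3:**
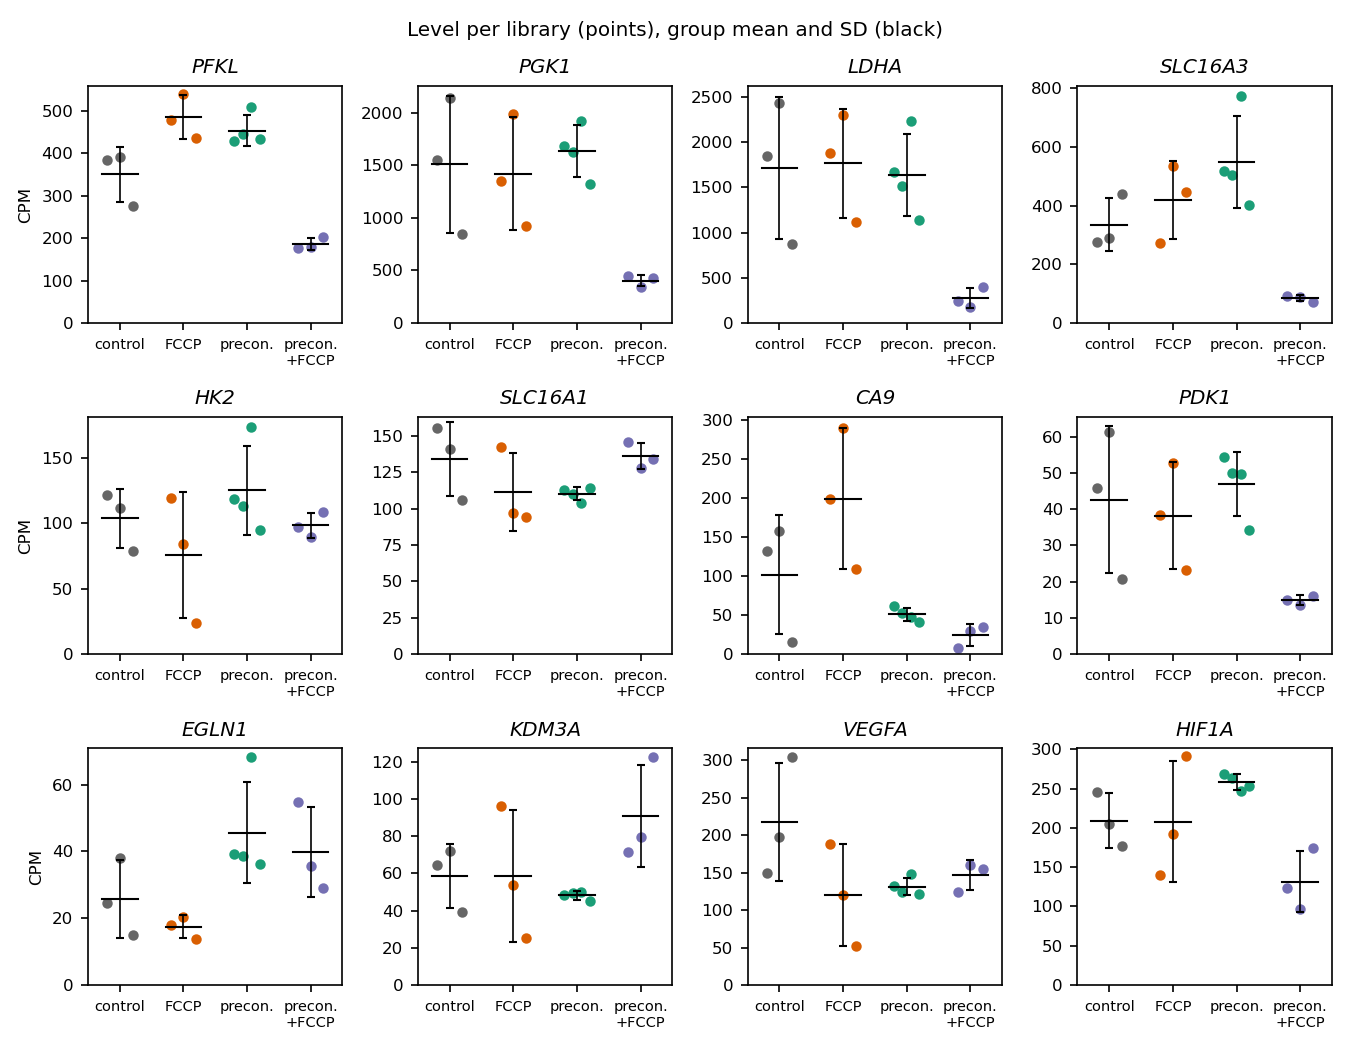
Level in CPM (vertical axes, from 0) of 12 members in each library of the 4 groups (precon. stands for preconditioning); points are libraries, lines are group means and bars are SDs. PFKL, PGK1, LDHA and SLC16A3 have their lowest points in preconditioning+FCCP without overlap, and HK2 overlaps. SLC16A1 in preconditioning+FCCP overlaps FCCP but lies above preconditioning. EGLN1 and KDM3A are higher in preconditioning+FCCP than in FCCP on average.

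Of the HIF members, the surface carbonic anhydrases CA9 and CA12 and the kinase gene PDK1 fell against FCCP. CA9, a carbonic anhydrase of the cell surface and a classic hypoxia marker, was at 133, 158 and 15.3 CPM in control, 199.5, 289.9 and 109 CPM in FCCP, 61.8, 53.2, 47.1 and 41.2 CPM in preconditioning, and 8.05, 29.7 and 35.1 CPM in preconditioning+FCCP. The preconditioning+FCCP libraries lay below all FCCP and preconditioning libraries, but control 3 lay among them. CA9 fell by 3.04 ± 0.65 against FCCP (adjusted p = 0.00273, 8.20-fold). Against preconditioning the log2 change was -1.06 ± 0.58 (adjusted p = 0.159), and without control 3, which is in neither group, it was -1.09 and called (adjusted p = 0.0322). In GENCODE 29 CA9 shares 38.5% of its exon bases with other genes, the largest overlap being with ARHGEF39.

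CA12, a related surface carbonic anhydrase, was at 36.9, 34.7 and 25.3 CPM in control, 33.4, 28.9 and 17.7 CPM in FCCP, 36.7, 35.0, 34.9 and 32.0 CPM in preconditioning, and 11.4, 11.7 and 15.7 CPM in preconditioning+FCCP, the lowest of all. It fell by 1.04 ± 0.24 against FCCP (adjusted p = 0.00388) and by 1.42 ± 0.23 against preconditioning (adjusted p = 0.000263). PDK1 encodes a kinase that switches off pyruvate dehydrogenase, the mitochondrial enzyme that turns pyruvate into acetyl-CoA. It was at 45.8, 61.1 and 20.8 CPM in control, 38.4, 52.8 and 23.3 CPM in FCCP, 54.3, 49.97, 49.7 and 34.1 CPM in preconditioning, and 15, 13.4 and 16.1 CPM in preconditioning+FCCP. Those 3 libraries were below the other 10. PDK1 fell by 1.36 ± 0.34 against FCCP (adjusted p = 0.0067) and by 1.67 ± 0.33 against preconditioning (adjusted p = 0.00113).

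The oxygen-sensing and chromatin targets were called higher or not at all in these comparisons. EGLN1 encodes PHD2, the main prolyl hydroxylase acting on HIF-1 alpha, and is induced by HIF-1 as a feedback. It was at 24.4, 37.9 and 14.8 CPM in control, 18.0, 20.5 and 13.8 CPM in FCCP, 39.4, 38.7, 68.2 and 36.2 CPM in preconditioning, and 54.9, 35.7 and 29.04 CPM in preconditioning+FCCP. Every preconditioning+FCCP library was above every FCCP library. EGLN1 rose by 1.19 ± 0.34 against FCCP (adjusted p = 0.0129), which ended without FCCP 3 (1.02, adjusted p = 0.0672) or preconditioning+FCCP 1 (0.89, adjusted p = 0.0751). Against preconditioning its log2 change was -0.19 ± 0.31, not called. EGLN3 reached at most 0.759 CPM, in FCCP 3.

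KDM3A, a histone demethylase induced by HIF-1, was at 64.7, 72.3 and 39.2 CPM in control, 96.2, 53.9 and 25.4 CPM in FCCP, 48.5, 49.3, 50.1 and 45.0 CPM in preconditioning, and 71.3, 79.5 and 122 CPM in preconditioning+FCCP. The preconditioning+FCCP libraries lay above all preconditioning libraries and overlapped those of FCCP. It rose by 0.92 ± 0.33 against preconditioning (adjusted p = 0.0352). ANKRD37, a small ankyrin repeat gene induced by HIF-1, was at 3.498, 5.16 and 3.44 CPM in control, 5.69, 5.92 and 5.32 CPM in FCCP, 3.396, 2.96, 2.84 and 3.22 CPM in preconditioning, and 4.92, 5.92 and 4.52 CPM in preconditioning+FCCP. It rose by 0.72 ± 0.26 against preconditioning (adjusted p = 0.035), with no overlap. ANKRD37 shares 35.2% of its exon bases with other genes, the largest overlap being with UFSP2. Each of these rises ended when any of 7 libraries was left out, among them all 4 preconditioning libraries (adjusted p up to 0.211 for KDM3A and 0.158 for ANKRD37).

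VEGFA, which drives vessel growth, was at 149.8, 198 and 304 CPM in control, 188, 121 and 51.9 CPM in FCCP, 132, 125, 148 and 122 CPM in preconditioning, and 124, 160.2 and 155 CPM in preconditioning+FCCP. The groups overlapped, with FCCP 3 the lowest library, and the log2 change of VEGFA was 0.28 ± 0.34 against FCCP and 0.16 ± 0.31 against preconditioning. NDRG1, a stress-responsive gene, was at 125, 236 and 44.6 CPM in control, 71.5, 111 and 32.5 CPM in FCCP, 156, 142, 229 and 129 CPM in preconditioning, and 146, 88.5 and 56.2 CPM in preconditioning+FCCP. Its libraries spread widely within groups, and its log2 change was 0.43 ± 0.50 against FCCP and -0.76 ± 0.47 against preconditioning. ADM, the vasodilator adrenomedullin, was at 24.6, 73.2 and 151 CPM in preconditioning+FCCP, a range that covered the FCCP libraries (47.3, 90.7 and 122 CPM) and that was not called in either comparison.

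The subunit genes are regulated mainly through their proteins, which RNA does not show. HIF1A was at 246, 205 and 177 CPM in control, 140.1, 192 and 292 CPM in FCCP, 269, 264, 247 and 253 CPM in preconditioning, and 123, 96.9 and 174 CPM in preconditioning+FCCP. It fell by 0.97 ± 0.24 against preconditioning (adjusted p = 0.00486), without overlap, and its log2 change against FCCP was -0.66 ± 0.25 (adjusted p = 0.0501). EPAS1, which encodes HIF-2 alpha, was at 61.1, 78.3 and 106.0 CPM in control, 69.4, 54.0 and 86.2 CPM in FCCP, 175, 176, 151 and 169 CPM in preconditioning, and 147, 67.2 and 67.7 CPM in preconditioning+FCCP. All preconditioning libraries were above the rest, and preconditioning+FCCP 1 was close to them. EPAS1 fell by 0.84 ± 0.27 against preconditioning (adjusted p = 0.0219), which ended without preconditioning+FCCP 2 (-0.67) or 3 (-0.68), with adjusted p-values of 0.0949 and 0.0847.

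Averaged over genes, the mean log2 CPM of the 24 glycolysis members was 6.71, 6.52 and 6.74 in preconditioning+FCCP and 7.20 to 7.93 in the other 10 libraries. The mean of the 11 tested HIF members was 5.24, 5.36 and 5.55 in preconditioning+FCCP, inside the 5.33 to 6.43 of the others except for the lowest. These HIF means were all below those of preconditioning (5.75 to 6.12), while the ranges of control and FCCP overlapped theirs. The difference between the class means was 1.46, 1.16 and 1.19 in preconditioning+FCCP, 1.86, 1.93 and 1.86 in FCCP, and 1.73, 1.79, 1.82 and 1.72 in preconditioning. In control it was 1.42 and 1.30 in the 2 libraries of the higher-share set and 1.87 in control 3, so the control group covered both levels.

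**Figure D4:**
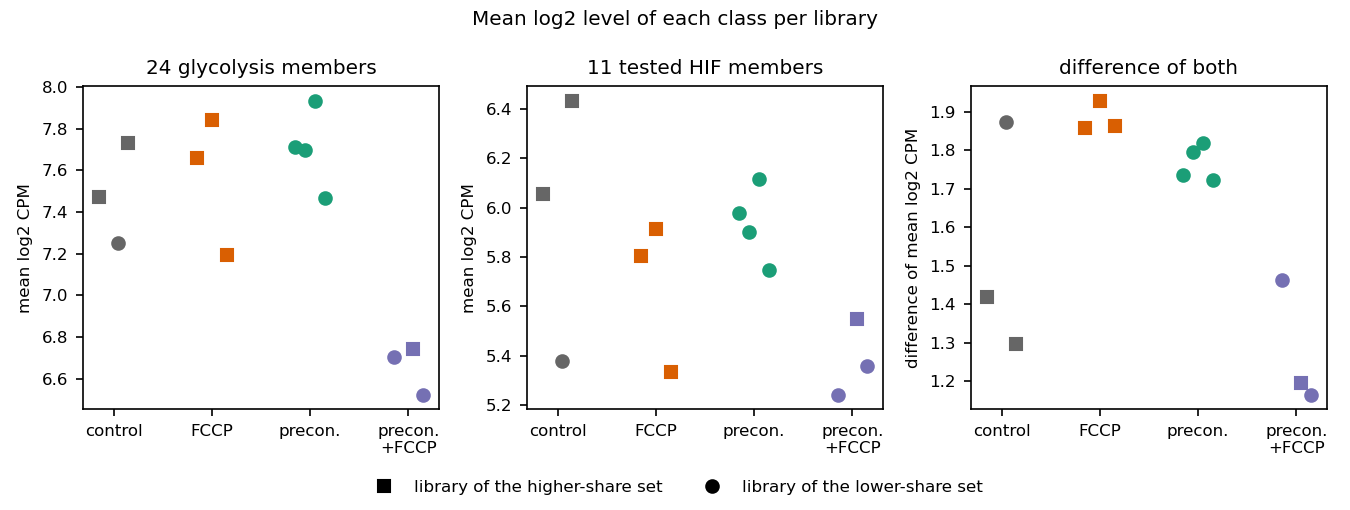
Mean log2 CPM of the 24 glycolysis members, of the 11 tested HIF members, and the difference of both (vertical axes) in each library by group (precon. stands for preconditioning); squares are libraries of the higher-share set and circles those of the lower. The glycolysis mean is 6.52 to 6.74 in preconditioning+FCCP and at least 7.20 elsewhere. The HIF means in preconditioning+FCCP overlap those of control and FCCP but lie below all those of preconditioning.

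The library sets bear on these results. All FCCP libraries lay in the higher-share set and 2 of the 3 preconditioning+FCCP libraries in the lower. With the set as a term in the fit, PFKL, PGK1, LDHA and SLC16A3 were still called lower against FCCP, at -1.16, -1.38, -2.0 and -2.62. CA9 (-1.65, adjusted p = 0.0969), PDK1 (-0.82, adjusted p = 0.137), ALDOC (-0.92, adjusted p = 0.169) and ENO2 (-0.61, adjusted p = 0.185) were not. The calls of PFKFB2 and LDHB also ended with this term. Of the members called against preconditioning, only KDM3A lost its call with the set term. Within the higher-share set, where preconditioning+FCCP has 1 library, the median of the glycolysis members against FCCP was -1.06 and none was called, while 3 genes in all were called. Within the lower-share set, which holds all 4 preconditioning libraries and preconditioning+FCCP 1 and 2, the glycolysis median against preconditioning was -1.19. There LDHA was at -2.94 and SLC16A3 at -2.61. Without control 3, FCCP 1 and preconditioning+FCCP 3 together, 9 HIF members were called against FCCP, 6 of them lower, and the glycolysis calls were 17 lower and 2 higher. That fit called 9276 genes in all against FCCP, beside 5976 with all 13 libraries.

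Most fibroblast markers were lower in the same libraries. Of the 15 fibroblast markers, 11 fell and 1 rose in preconditioning+FCCP against FCCP, where 17.7% of all genes were called lower and 17.9% higher. Their summed level was 3578 to 5227 CPM in preconditioning+FCCP, beside 10480 to 12030 CPM in FCCP and 11140 to 12030 CPM in preconditioning. The summed level of the 26 cardiomyocyte markers was 21.4 to 29.04 CPM, beside 88.6 to 194.9 CPM and 134 to 194 CPM. That sum was mostly GJA1, the gap junction protein connexin 43, which other cell types also make, with means of 15.9 CPM in preconditioning+FCCP and 150.4 CPM in FCCP. Of the 9 tested cardiomyocyte markers 3 fell and 1 rose (GATA4) against FCCP, with a median of -0.31. That share of calls was near the 35.7% of all genes called in either direction. The smooth muscle list (10 of 10 tested) ranged over 1006 to 2170 CPM in preconditioning+FCCP, 2815 to 3506 CPM in FCCP and 1743 to 2343 CPM in preconditioning. The endothelial list (9 of 12 tested) ranged over 164 to 216 CPM, 259.6 to 336 CPM and 263 to 346 CPM in the same order. Against FCCP, 5 of the 10 smooth muscle markers and 3 of the 9 tested endothelial markers fell, and none rose. The immune list (4 of 13 tested, 2 genes with no read) stayed below 13 CPM in every library. The part of these markers in the glycolysis result was not tested.

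Promoters of the members were read for the ACGTG core to show what the letters near their starts hold. RefSeq promoters on GRCh38.p14, 250 bases before to 50 after the start, were found for 31 of the 36 members. Those of LDHA and PGK1 are printed because both genes fell in both comparisons, CA9 because it fell most among the HIF members against FCCP, and EGLN1 and ANKRD37 because they rose in 1 of them. These 5 were chosen after their values were seen. Capitals mark ACGTG or its reverse complement CACGT. Each is written 5′ to 3′ on the strand of its gene, from chr11:18394313-18394612 (plus strand) for LDHA, chrX:78103998-78104297 (plus) for PGK1, chr9:35673678-35673977 (plus) for CA9, chr1:231422238-231422537 (minus) for EGLN1 and chr4:185396591-185396890 (plus) for ANKRD37.
LDHA: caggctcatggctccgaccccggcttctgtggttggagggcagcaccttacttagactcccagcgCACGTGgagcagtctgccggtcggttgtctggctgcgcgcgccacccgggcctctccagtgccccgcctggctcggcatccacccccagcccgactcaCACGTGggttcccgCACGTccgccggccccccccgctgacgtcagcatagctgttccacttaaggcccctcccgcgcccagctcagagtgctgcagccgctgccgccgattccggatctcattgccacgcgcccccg
PGK1: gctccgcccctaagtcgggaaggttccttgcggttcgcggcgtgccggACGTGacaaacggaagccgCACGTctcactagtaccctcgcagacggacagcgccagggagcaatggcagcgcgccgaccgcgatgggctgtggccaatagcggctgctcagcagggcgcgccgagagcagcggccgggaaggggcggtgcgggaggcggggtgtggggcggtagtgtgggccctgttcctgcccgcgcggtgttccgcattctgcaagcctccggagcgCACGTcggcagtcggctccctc
CA9: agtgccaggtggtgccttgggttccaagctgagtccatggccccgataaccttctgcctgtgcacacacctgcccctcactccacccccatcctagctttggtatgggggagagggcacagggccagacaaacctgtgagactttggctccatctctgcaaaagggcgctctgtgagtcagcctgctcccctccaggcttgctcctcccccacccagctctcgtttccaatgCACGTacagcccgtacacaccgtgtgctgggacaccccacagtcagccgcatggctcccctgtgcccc
EGLN1: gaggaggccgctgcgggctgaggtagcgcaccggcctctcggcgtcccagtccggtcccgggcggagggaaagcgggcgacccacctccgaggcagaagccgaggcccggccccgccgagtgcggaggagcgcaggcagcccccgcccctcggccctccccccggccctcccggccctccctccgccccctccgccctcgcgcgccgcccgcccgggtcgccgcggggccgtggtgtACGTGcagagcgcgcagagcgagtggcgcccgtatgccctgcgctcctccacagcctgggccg
ANKRD37: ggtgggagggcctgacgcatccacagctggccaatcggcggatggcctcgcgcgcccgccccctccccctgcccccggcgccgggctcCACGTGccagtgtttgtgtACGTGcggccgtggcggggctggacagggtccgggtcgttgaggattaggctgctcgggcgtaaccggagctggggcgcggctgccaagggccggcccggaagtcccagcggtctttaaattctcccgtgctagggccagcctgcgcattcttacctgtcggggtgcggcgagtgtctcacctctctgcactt

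On both strands, the motif matched 5 times in LDHA, 3 times in PGK1, 1 time in CA9, 1 time in EGLN1 and 3 times in ANKRD37, where a palindromic CACGTG counts as 2 matches. It was in 11 of the 31 member promoters (35.5%), beside 21.6% of the 27305 promoters of this length. Among glycolysis members called lower against FCCP, 6 of 16 promoters held it (37.5%), and among the others 2 of 5. Of the HIF members, 3 of 10 did. PFKL, PKM, ENO1 and SLC16A3, which fell, had no match in this window, and HK2, which was not called, had 2. A match is a description of the letters and not a binding site.

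How the response to FCCP differed with preconditioning was tested with the interaction, the log2 change with FCCP after preconditioning minus that without. It was called lower for 14 of 24 glycolysis members and higher for none, where 9.6% of all genes were called lower and 9.38% higher (19% in either direction). The median was -1.22 over the 24 genes and 0.07 over all genes. The values of the exporter and of lactate dehydrogenase A were the most negative, at -3.02 ± 0.39 for SLC16A3 (adjusted p = 0.000434) and -2.61 ± 0.53 for LDHA (adjusted p = 0.00435). PFKL (-1.76 ± 0.25), PKM (-2.07 ± 0.36), ENO1 (-1.74 ± 0.35), PGK1 (-1.93 ± 0.43) and HK1 (-1.26 ± 0.28) were also called. Of the 14, 11 held without each library in turn. SLC2A1 (-0.99) was called in only 4 of those 13 fits, GPI ended without preconditioning+FCCP 2 (adjusted p = 0.0527) and ALDOC without FCCP 2 (adjusted p = 0.0529).

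Of the HIF members, CA12 (-1.14 ± 0.32, adjusted p = 0.0229) and PDK1 (-1.51 ± 0.46, adjusted p = 0.033) had a called interaction, and the median of the 11 was 0.16. Neither held without each library: CA12 ended without FCCP 2 or preconditioning+FCCP 2 and PDK1 without any of 7 libraries, with adjusted p-values up to 0.0669 and 0.1. The count of HIF members called moved between 0, without FCCP 2 or preconditioning+FCCP 2, and 5, without FCCP 1. It was 1 without control 1, preconditioning 1, preconditioning 2 or preconditioning 3. VEGFA (1.01 ± 0.46) and ADM (1.72 ± 0.76) had positive interactions that were not called (adjusted p = 0.133 and 0.122).

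**Figure D5:**
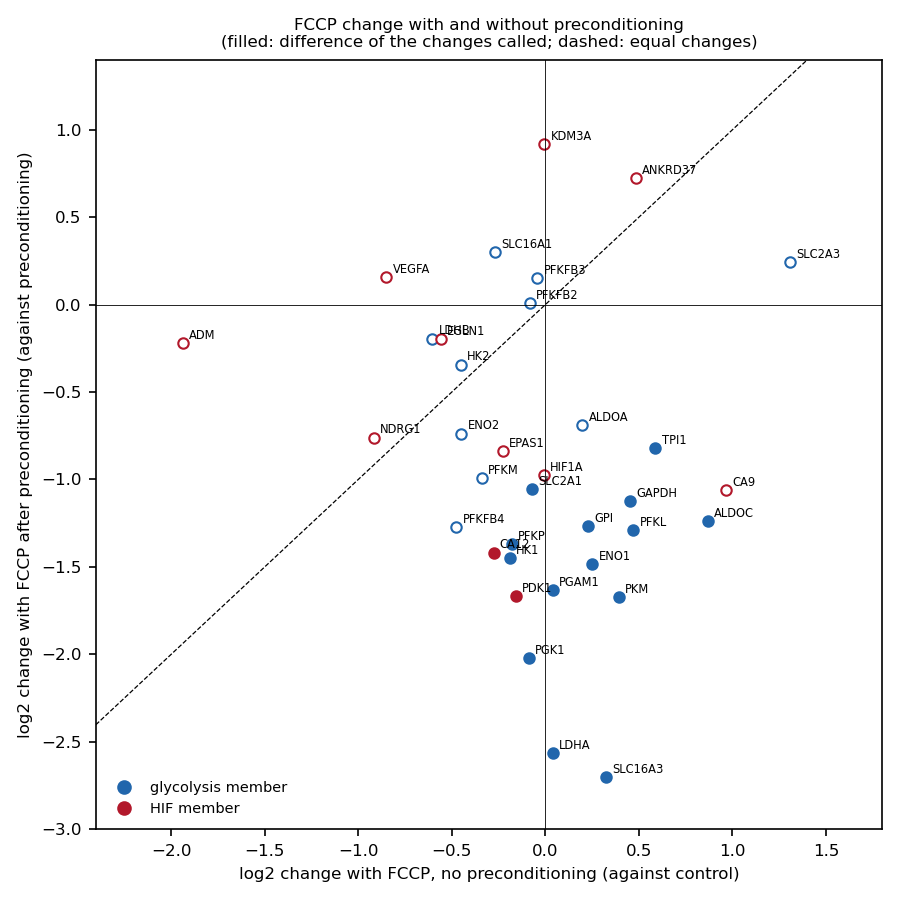
Log2 change with FCCP against control (horizontal axis) and log2 change with FCCP after preconditioning, against preconditioning (vertical axis), for the 35 tested members; the 2 axes share no library. Blue points are glycolysis members and red points HIF members, filled where the difference of the changes was called, and the dashed line marks equal changes. SLC16A3 and LDHA lie farthest below the line, at an interaction of -3.02 and -2.61, and the filled points are all below it.

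With FCCP alone few members were called, as were few of all genes. Against control, SLC2A3 was the 1 glycolysis member called, and none of the 11 HIF members was called, where 3.52% of all genes were called (1.6% higher and 1.92% lower). SLC2A3 rose by 1.31 ± 0.27 (adjusted p = 0.0212), with every FCCP library above every control library. Without control 1, control 2 or FCCP 2 that call ended (1.18, 1.14 and 1.30, adjusted p = 0.0641, 0.0643 and 0.0601). The glycolysis median was -0.0011 and the HIF median -0.23, beside -0.04 over all genes. LDHA changed by 0.04 ± 0.38 and SLC16A3 by 0.32 ± 0.27, neither called. At an unadjusted p below 0.05 there were 4 glycolysis members and 2 HIF members, the latter being ADM (-1.94 ± 0.57, adjusted p = 0.0723) and VEGFA (-0.85 ± 0.34, adjusted p = 0.171).

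ADM was at 304, 542 and 149.5 CPM in control and 47.3, 90.7 and 122 CPM in FCCP, without overlap. It was called lower without control 3 (-2.32, adjusted p = 0.0323), without preconditioning+FCCP 1 (-1.96, adjusted p = 0.0403) or without preconditioning+FCCP 3 (-1.96, adjusted p = 0.041). The number of HIF members called was 2 without control 3 and 1 without FCCP 1, preconditioning+FCCP 1 or preconditioning+FCCP 3. DESeq2 and limma-voom also called 1 glycolysis and 0 HIF members here.

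Both glucose transporters were called higher in preconditioning than in control. Against control, 2 glycolysis members rose and 2 fell, and 1 HIF member rose and 1 fell, where 10.5% of all genes were called higher and 13% lower (23.6% in either direction). SLC2A1 rose by 1.00 ± 0.23 (adjusted p = 0.007), about 2.01-fold, and SLC2A3 by 1.01 ± 0.26 (adjusted p = 0.0128), in both cases without overlap. LDHB fell by 1.46 ± 0.33 (adjusted p = 0.00738), from a mean of 6.07 to 2.21 CPM, and ENO2 by 0.73 ± 0.25 (adjusted p = 0.0497). EPAS1 rose by 1.04 ± 0.27 (adjusted p = 0.0139), from a mean of 81.8 ± 22.6 (SD, n = 3) to 168 ± 11.5 CPM (SD, n = 4). ADM fell by 1.78 ± 0.52 (adjusted p = 0.023). Its preconditioning libraries were at 77.9, 77.3, 169 and 63.2 CPM, of which preconditioning 3 overlapped control 3.

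Several of these calls ended when a library was left out. SLC2A1 and LDHB were called without each library in turn, while the call of SLC2A3 and that of EPAS1 ended without control 1 (0.89 and 0.86) or control 2 (0.84 and 1.01). ADM ended without control 1, control 2, preconditioning 1, preconditioning 2 or preconditioning 4 (adjusted p up to 0.141), and ENO2 without any of 10 libraries (adjusted p up to 0.264). Without control 1 or control 2, 2 glycolysis members were called. HIF members called were 0 without control 1 and 1 without control 2, preconditioning 1, preconditioning 2 or preconditioning 4. With the library set as a term no member was called. Control 3 is the 1 control in the set of the preconditioning libraries. CA9 differed in sign by the control used: its log2 change was -1.01 ± 0.56 with all controls (not called), -1.52 without control 3 (adjusted p = 0.00947) and 1.74 against control 3 alone within the lower-share set. That last value rests on 1 control library, so it has no spread among controls behind it.

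Genes around the members were read from lists of neighbouring pathways, and their counts stand beside the 17.7% of all genes called lower and 17.9% called higher against FCCP. A list with a like share of calls does not stand apart from all genes. Of 17 tested further glycolytic genes and carriers, 5 fell and 2 rose in preconditioning+FCCP against FCCP, near the 35.7% of all genes called in either direction. The falls included PGM1, which links glycogen to glycolysis (-1.18 ± 0.23), SLC2A4, the insulin-responsive transporter (-2.91 ± 0.61), and LDHD, a D-lactate dehydrogenase (-3.14 ± 0.67). SLC2A4 and LDHD are near the detection limit, with means of 0.269 and 0.362 CPM in preconditioning+FCCP. Of 9 pentose phosphate genes 3 fell and none rose: TKT (-1.19 ± 0.20), TALDO1 (-0.99 ± 0.22) and PGLS (-1.38 ± 0.31). In either direction this share of calls was also near the 35.7% of all genes. The 14 genes of pyruvate entry and oxidation went both ways, with 5 higher and 2 lower. DLAT, a pyruvate dehydrogenase subunit, rose by 0.97 ± 0.20 and MPC1, of the mitochondrial pyruvate carrier, by 1.00 ± 0.21, while PDHB, another subunit, fell by 1.12 ± 0.23.

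Of 29 tested further HIF targets, 10 fell and 2 rose against FCCP, where 17.7% of all genes were called lower and 17.9% higher. In either direction that share of calls was near the 35.7% of all genes. Glycogen synthase GYS1 fell by 1.74 ± 0.26, the collagen-modifying enzyme PLOD2 by 1.798 ± 0.27 and the glycogen branching enzyme GBE1 by 1.49 ± 0.24. Among 16 genes of the HIF machinery 3 rose and 3 fell, also near the 35.7% of all genes. The coactivators EP300 (1.26 ± 0.27) and CREBBP (1.12 ± 0.25) rose and ARNT2, a partner subunit, fell by 1.15 ± 0.28. Of the 13 mitochondrial mRNAs, 1 was called lower, MT-CO2 (-1.72 ± 0.56).

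Against preconditioning, where 19.2% of all genes were called lower and 20.2% higher, the same lists gave 7 lower and 5 higher of the further glycolytic genes, led by PGM1 (-2.08 ± 0.23) and SLC16A7, the carrier MCT2 (-1.70 ± 0.27), with TIGAR, a fructose 2,6-bisphosphatase, higher (2.49 ± 0.48). Pentose phosphate genes were 3 lower and none higher: H6PD (-1.53 ± 0.26), PRPS1 (-0.82 ± 0.17) and TKT (-0.80 ± 0.19). Further HIF targets were 14 lower and 3 higher, led again by GYS1 (-2.22 ± 0.25), GBE1 (-1.89 ± 0.23) and PLOD2 (-1.74 ± 0.26). Pyruvate entry had 6 lower and 3 higher. MPC1 rose by 1.74 ± 0.20. PDK4, a kinase of pyruvate dehydrogenase, rose from a mean of 0.125 to 1.35 CPM (adjusted p = 0.0029), while the phosphatase PDP1 fell by 0.94 ± 0.21. The HIF machinery had 3 in each direction, with ARNT2 (-2.21 ± 0.27) and CITED2, which competes with HIF for its coactivators (-2.67 ± 0.45), lower and SIAH2 (1.18 ± 0.25) higher. Of the mitochondrial mRNAs, 2 rose, MT-ATP6 (1.70 ± 0.46) and MT-ND2 (1.41 ± 0.45).

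FCCP against control called few of these genes, as it did of all genes (3.52%). PGD (0.81 ± 0.15) of the pentose phosphate list rose. PDP1 (-1.09 ± 0.22), CITED2 (-1.82 ± 0.45), the stress gene DDIT4 (-1.35 ± 0.35) and the glycogen regulator PPP1R3C (-1.27 ± 0.34) fell, and none of the 17 further glycolytic genes was called (2 at an unadjusted p below 0.05). The smallest adjusted p among those 17 was that of SLC2A4 (1.45 ± 0.56, adjusted p = 0.159). No mitochondrial mRNA was called (5 at an unadjusted p below 0.05), and MT-ND6 came nearest (-2.33 ± 0.70, adjusted p = 0.0743).

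Preconditioning against control, with 10.5% of all genes called higher and 13% lower, gave 4 higher and 2 lower further glycolytic genes, with SLC2A12 (1.68 ± 0.31), PGM1 (0.82 ± 0.22) and SLC16A7 (0.92 ± 0.26) higher. H6PD (1.56 ± 0.26), PRPS1 (0.78 ± 0.17) and PGD (0.57 ± 0.14) rose among the pentose phosphate genes, of which 1 fell. Pyruvate entry had 3 in each direction: MPC2 (-1.66 ± 0.31) and PDHA1 (-0.78 ± 0.19) fell and PDP2 (1.45 ± 0.33) rose. In the HIF machinery 4 fell and 1 rose. RBX1 (-1.38 ± 0.27) and ELOB (-1.16 ± 0.26), parts of the ubiquitin ligase that removes HIF-1 alpha, fell and ARNT2 rose (1.04 ± 0.26). Among further HIF targets 5 fell, such as ANGPTL4 (-4.03 ± 1.01), and 2 rose, RORA (1.53 ± 0.32) and TFRC (1.53 ± 0.39). Of the 13 mitochondrial mRNAs 11 fell, with MT-ND3 (-2.67 ± 0.47), MT-ND2 (-2.42 ± 0.46) and MT-CYB (-2.62 ± 0.54) the clearest by adjusted p. The share of mitochondrial counts was 9.58% and 8.95% in control 1 and 2, 3.00% in control 3 and 1.00% to 1.85% in the preconditioning libraries.

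Beside 9.6% of all genes called lower and 9.38% higher, the interaction was called lower for 5 of 17 further glycolytic genes, led by PGM1 (-2.01 ± 0.32), SLC2A4 (-3.85 ± 0.81) and SLC2A12 (-1.82 ± 0.44), and for 4 of 9 pentose phosphate genes, led by PGD (-0.92 ± 0.20), H6PD (-1.70 ± 0.37) and PRPS1 (-1.15 ± 0.25). None of either list was called higher. In pyruvate entry MPC1 (1.60 ± 0.29) and PDK4 (adjusted p = 0.00365, with a mean of 0.0463 CPM in FCCP, too low for a fold) were higher, and 2 genes were lower, including PC (-1.14 ± 0.34). ARNT2 (-2.19 ± 0.38) was the 1 gene called in the HIF machinery. Further HIF targets gave 3 lower, GYS1 (-2.08 ± 0.35), GBE1 (-1.72 ± 0.33) and PLOD2 (-1.41 ± 0.36), and 1 higher. Of the mitochondrial mRNAs MT-ND2 (2.43 ± 0.67) and MT-ND1 (3.09 ± 0.87) were higher.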

How the data were processed

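Poly-A RNA of 13 AC16 libraries was analysed. The authors deposited 1 table of raw gene counts for each library. Per the submitters' processing notes, HISAT2, HTSeq and hg19 were used. Versions, annotation release and strand setting are not given in the sources used here. Overlapping genes on opposite strands may therefore not have been told apart, and reads of GAPDH, PGK1, LDHA, ENO1, TPI1 and PGAM1 may be divided with their pseudogene copies. Reads without a gene did not enter the library sizes: those outside genes were 2.13% to 5.20% of a library, those over several genes 11.0% to 12.4% and those aligned to several places 3.16% to 11.5%. No pair of libraries in a group agreed within sampling noise (lowest chi-square per degree of freedom 3.32). This value was 153 and 167 for control 3 with the other controls. For FCCP 1 it was 80.2 and 105, and for preconditioning+FCCP 3 it was 87.0 and 125, each within its group. The remaining pair of each of these groups was at 22.1, 22.4 and 28.2. Control 3, FCCP 1 and preconditioning+FCCP 3 are the libraries left out together in 1 alternative.

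Groups were taken from the labels. Counts were filtered with edgeR's default filter (16756 genes), scaled with TMM factors and fitted for all 13 libraries together with a term per group (edgeR 4.0.16 quasi-likelihood, R 4.3.3). Adjusted p-values are Benjamini-Hochberg over all genes tested, and a gene was called below 0.05. The SE was computed from the log2 change and the F value of its test. Class means used log2 CPM with a prior count of 2, and the map of members a pseudocount of 0.5. The fit was tested on simulated data. Alternatives were DESeq2 size factors, library totals, no filter, DESeq2 1.42.0, limma-voom 3.58.1, the compared groups alone, a replicate block, a library-set term, and libraries left out. Exon overlaps were read from GENCODE 29 (GRCh38) and symbols were found for 62666 gene IDs.

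The members and lists were chosen with earlier results of these data known. Named genes are the 36 members, with every library's value for a fixed list of them and for up to 6 called members a class and comparison, and up to 3 called members of each other list, by adjusted p. Some genes of the further lists are not reported here.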

Additional observations from a re-analysis of the deposited data

Results flagged for a closer look

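In preconditioning 3, 4 of the 35 tested members stood apart from the other 3 preconditioning libraries by a gap larger than Dixon's 95% critical value: PFKFB2 at 7.52 CPM, below the others, and PFKFB3 at 83.7, ADM at 169 and EGLN1 at 68.2 CPM, above them. Chance alone marks about 1 in 20 such groups.

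The change with FCCP differed between cells with and without preconditioning (interaction, edgeR's quasi-likelihood test) for 16 members, all with a lower change after preconditioning. The log2 interaction was -0.99 for SLC2A1, -1.26 for HK1, -1.49 for GPI, -1.76 for PFKL, -1.19 for PFKP, -2.11 for ALDOC, -1.41 for TPI1 and -1.57 for GAPDH. It was -1.93 for PGK1, -1.67 for PGAM1, -1.74 for ENO1, -2.07 for PKM, -2.61 for LDHA and -3.02 for SLC16A3. Among the HIF members it was -1.14 for CA12 and -1.51 for PDK1.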

How the results depend on the processing

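Over all alternatives run, the median log2 change of the glycolysis members in preconditioning+FCCP stayed between -1.32 and -0.87 against FCCP, between -1.25 and -0.996 against preconditioning and between -1.39 and -1.08 for the interaction. That of the HIF members ranged from -0.54 to 0.05, from -0.87 to -0.41 and from -0.29 to 0.26 in the same order. Without each library in turn, glycolysis members called were 0 to 1 (FCCP against control), 2 to 6 (preconditioning against control), 13 to 18 (preconditioning+FCCP against FCCP), 14 to 17 (against preconditioning) and 12 to 16 (interaction). HIF members called were 0 to 2, 0 to 3, 3 to 6, 4 to 8 and 0 to 5, and genes called 142 to 893, 1506 to 6057, 3848 to 7113, 5027 to 7688 and 2013 to 4576, in the same order. For FCCP against control, genes called were 1078 without a filter, 1238 with DESeq2, 382 with limma-voom, 17 with the compared groups alone and 938 with the set term. Glycolysis members called there were 2 without a filter and 0 with the groups alone, and HIF members 4 without a filter and 1 with the set term. For preconditioning against control, HIF members called were 5 without a filter, glycolysis members 7 with DESeq2, and with the set term 459 genes and 0 members of either class. The set term gave 3629 genes against FCCP and 4 HIF interactions, and no filter 6 HIF interactions. Without control 3, FCCP 1 and preconditioning+FCCP 3 together, genes called were 3113, 8405, 9276 (against FCCP) and 6421 (interaction). Glycolysis members were then 5 and 11 in the comparisons with control, and HIF members 6, 4, 9 and 6. Fits within a library set were chosen after seeing the data. In the higher-share set, FCCP against control called 31 genes, 0 glycolysis members and 1 HIF member, and preconditioning+FCCP against FCCP 3 genes and 0 of each class. The lower-share set holds 1 control library, assumed in that fit to vary like the other groups. There ENO2 (0.17) and CA9 (1.74) had the opposite sign in preconditioning against control. The cause was not tested. Library totals in place of TMM factors moved the median of all genes from 0.01 to 0.19 against FCCP and from -0.02 to 0.09 for preconditioning against control. They also changed the share of higher among called genes from 45.4% to 58.0% for FCCP against control, from 44.7% to 55.2% for preconditioning against control and from 50.3% to 64.1% against FCCP.

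Replicate numbers of different groups did not pair: of 18 same-numbered pairs 1 had a correlation of deviations over 0.1. Of 45 differently numbered pairs 13 did, the highest at 0.232 for control 3 with FCCP 1. A replicate block gave 53 genes and 0 glycolysis members for FCCP against control, 1840 genes and 1 member of each class for preconditioning against control, and 1897 genes and 1 HIF member for the interaction.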
